A study of Mus musculus with 165 samples.

Results

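Livers of male mice aged 24 months were compared with livers of male mice aged 15 months. The comparison held 33 of the 165 libraries of the series, 17 livers of 24 months and 16 livers of 15 months. Members were chosen by the tissue, age and library preparation in the labels and by no measured value. All mice were males of the inbred strain C57BL/6J/Ukj, kept only to age, and no other genotype and no treatment was named for either age. A library preparation, called prep here, is one of 3 batches that the labels name. Prep 1 held 5 livers of each age, prep 2 held 7 of 15 months and 6 of 24 months, and prep 3 held 4 of 15 months and 6 of 24 months. The series also held livers of 3, 9 and 28 months, which made 83 livers in all, and brains labelled with the same ages and replicate numbers.

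The livers were sequenced as bulk polyadenylated RNA, so each value averages over all cells of a tissue piece. Fewer cells of a type and less RNA per cell cannot be told apart in such data. Levels are in CPM, the counts of a gene per M counts of its library, and changes are log2 fold changes of 24 minus 15 months with their standard error (SE). Genes with an adjusted p under 0.05 are called here, and only these are said to rise or fall. Depth ran from 5.82 to 47.6 M counts per liver at 15 months (median 31) and from 25.1 to 45.2 M counts at 24 months (median 35.8). The 6 hepatocyte markers, Alb among them, summed to between 75490 and 123100 CPM at 15 months and between 54820 and 123300 CPM at 24 months and were present in every liver. The neuron marker list summed to at most 17.3 CPM in any of the 33 livers. Among markers of exocrine pancreas, which dissection can include, Pnlip had no count in any liver and the whole list of 5 summed to at most 1.10 CPM.

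In the mouse liver, growth hormone reaches hepatocytes in pulses in males and almost continuously in females. Pulses act through the receptor Ghr and the transcription factor STAT5b, and they hold male-type genes such as the major urinary proteins up and female-type genes such as Cyp2b9 and Cyp2b13 down. The same hepatocytes answer inflammatory cytokines by secreting acute phase proteins, among them serum amyloid A, orosomucoids and lipocalin 2. Kupffer cells are the resident macrophages of the liver, while lymphocytes and neutrophils enter it from the blood.

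Genes of the growth hormone, acute phase, neutrophil and lymphocyte groups were among those called, and they differed in how many livers of 24 months left the 15-month range. Across all genes, 5609 of 15579 were called over the 3 preps together (36%), 3365 of them higher at 24 months (21.6%) and 2244 lower (14.4%). A change of 2-fold or more was seen in 951 of the higher and 117 of the lower genes, and the median log2 fold change of all genes tested was 0.02. No gene separated the ages without overlap, since 0 of 15579 genes had all 24-month livers beyond all 15-month livers. The median gene called higher had 6 of 17 livers of 24 months above every liver of 15 months, and the median gene called lower had 6 below every one of them.

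Female-type genes of the Cyp2b family were higher at 24 months. Cyp2b13, a cytochrome P450 on chr7:26061497-26096197, and its neighbour Cyp2b9 on chr7:26173411-26210661 are close copies, so reads may have been split between them. The 250 bases before the RefSeq start of each gene (GRCm38.p6, both on the plus strand, chr7:26061245-26061494 and chr7:26173159-26173408) are shown because the pair moved together. They matched at 248 of 250 bases (99.2%), and capitals mark the 2 that differ.
Cyp2b13: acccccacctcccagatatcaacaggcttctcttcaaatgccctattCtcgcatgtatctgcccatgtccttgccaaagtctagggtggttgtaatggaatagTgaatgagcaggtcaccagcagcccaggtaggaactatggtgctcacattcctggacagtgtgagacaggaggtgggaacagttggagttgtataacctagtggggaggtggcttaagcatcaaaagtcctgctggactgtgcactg
Cyp2b9: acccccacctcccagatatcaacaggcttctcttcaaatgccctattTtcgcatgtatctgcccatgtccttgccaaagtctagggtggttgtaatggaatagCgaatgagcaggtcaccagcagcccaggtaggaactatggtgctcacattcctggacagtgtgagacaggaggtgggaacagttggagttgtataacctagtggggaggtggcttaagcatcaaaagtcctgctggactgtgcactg

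Cyp2b13 ran from 0 to 0.208 CPM at 15 months (median 0.0468) and from 0.0513 to 80.6 CPM at 24 months (median 1.76). In 15 of 17 livers of 24 months it lay above every liver of 15 months, where 12 of 16 livers held 3 counts or fewer. Its log2 fold change was 6.79 ± 0.74 (SE), with an adjusted p of 3.3e-10 in edgeR's quasi-likelihood test. The rise was 7.67 in prep 1, 7.15 in prep 2 and 4.57 in prep 3, and it was called in each prep fitted alone. In prep 1 replicate 15 held 80.6 CPM and the next liver 2.42 CPM, so 1 liver weighs heavily in that value. Only 2 livers of prep 2, replicates 3 and 8, stayed within the 15-month range. Mean levels at the other ages were 0.0154 CPM at 3 months, 0.0624 CPM at 9 months and 43.2 CPM at 28 months. Cyp2b9 went from 0.686 to 32.5 CPM (median 4.32) at 15 months to between 2.79 and 329.3 CPM (median 92.6) at 24 months. The highest 15-month liver, replicate 1 at 32.5 CPM, stood near the lower livers of 24 months, and 13 of 17 livers lay above it. The log2 fold change of Cyp2b9 was 4.00 ± 0.54 (SE), with an adjusted p of 7.3e-08 in the same test.

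**Figure D1:**
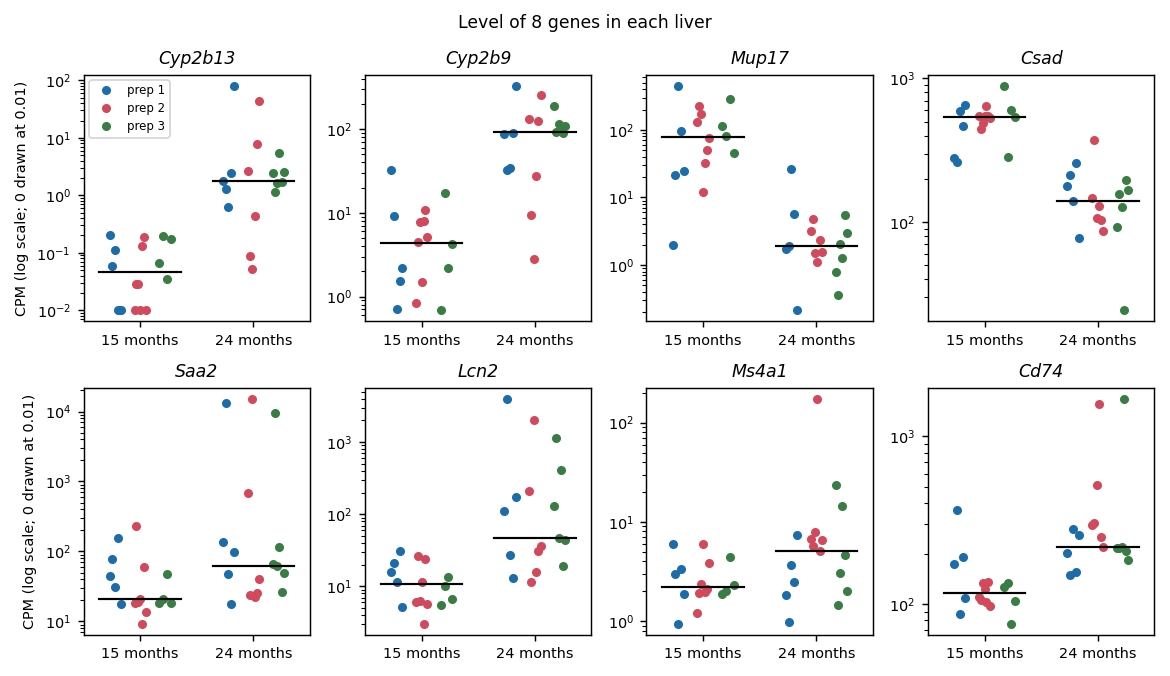
Level of 8 genes in each of the 33 livers in CPM on a log axis, by age and coloured by prep; each point is 1 liver, the black line is the median of the age, and a level of 0 is drawn at 0.01. Beyond the whole 15-month range lay 15 of 17 livers for Cyp2b13, 13 for Cyp2b9, 9 for Mup17, 16 for Csad, 4 for Saa2, 11 for Lcn2, 7 for Ms4a1 and 3 for Cd74.

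Genes that growth hormone pulses repress were read from a list of 30, of which 26 were tested, Cyp2b13 and Cyp2b9 among them. Of these 26 genes, 15 rose and none fell, and the median log2 change was 1.10. The list's median was 0.98, 1.16 and 1.64 in preps 1, 2 and 3. Sult1e1, the estrogen sulfotransferase, rose from a median of 0.0697 CPM (range 0 to 0.189) to 0.642 CPM (range 0.0872 to 12.6). It was above all 15-month livers in 14 of 17 livers (log2 fold change 4.90 ± 0.64, adjusted p 3.6e-08 by edgeR). Sult3a1, another sulfotransferase of female liver, was above them in 15 of 17 (4.69 ± 0.63, adjusted p 5.9e-08 by edgeR). The organic anion transporter gene Slc22a26 went from 0.963 to 29.5 CPM at 15 months to 5.81 to 233.8 CPM at 24 months. Its groups overlapped in 7 livers of 24 months, and its log2 fold change was 3.26 ± 0.42.

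Genes of the major urinary proteins, the pheromone carriers that male liver secretes, fell. All 20 tested members of the list were lower. Their median log2 change was -2.66, with -2.05, -2.93 and -3.38 in preps 1, 2 and 3. The family lies in 1 cluster on chromosome 4 and its genes share long stretches of sequence, so single members are uncertain and the family is the firmer unit. Mup17 (chr4:61591929-61595871) ran from 1.97 to 449.6 CPM at 15 months (median 77.95) and from 0.214 to 26.2 CPM at 24 months (median 1.94). It was below every 15-month liver in 9 of 17 livers, and 1 liver of 15 months, replicate 1 at 1.97 CPM, lay within the middle of the 24-month range. The log2 fold change of Mup17 was -4.94 ± 0.59 (adjusted p 1.1e-08 by edgeR), the lowest of the genes named here. Mup7 fell from a median of 2794 CPM (21.7 to 5767) to 206.1 CPM (1.21 to 1636). Only 2 livers of 24 months lay below the 15-month range of Mup7, so the groups overlapped widely (-2.95 ± 0.63). Mup11 and Mup14 fell by 3.85 and 3.71 on the log2 scale.

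Other genes driven by growth hormone pulses fell as well. Of 20 tested members, 18 were lower and none was higher, and the median log2 change was -1.22 (-1.0, -1.14 and -1.5 in preps 1, 2 and 3). Gstp1, a glutathione S-transferase higher in males, ran from 508.4 to 1180 CPM at 15 months (median 895.1) and from 221.1 to 836.6 CPM at 24 months (median 350.2). In 14 of 17 livers it lay below every 15-month liver, and replicates 3, 7 and 12 of 24 months remained within the 15-month range (log2 fold change -1.07 ± 0.13, adjusted p 1.1e-08 by edgeR). Ugt2b38, a glucuronosyltransferase, was below the 15-month range in 15 of 17 livers (-1.95 ± 0.31), and Ces4a, a carboxylesterase, in 12 of 17 (-2.32 ± 0.34). Cspg5, a proteoglycan gene, fell by 2.48 on the log2 scale, yet 0 livers lay below the 15-month range because 1 liver of 15 months held no count. Cyp2d9, a male-type P450, went from a median of 1055 CPM (328.2 to 1505) to 462.5 CPM (112.5 to 823.9), a log2 fold change of -1.11 ± 0.20.

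Csad, which makes a precursor of taurine from cysteine sulfinate, was in none of the gene lists. It ran from 264.2 to 890.0 CPM at 15 months (median 542.9) and from 24.4 to 373.2 CPM at 24 months (median 139.5). With 16 of 17 livers below the whole 15-month range, Csad was among the genes with the least overlap (log2 fold change -1.77 ± 0.25, adjusted p 2.1e-07 by edgeR). Alas2, the erythroid form of the first enzyme of heme synthesis, was equally separated, with 91.9 to 127.9 CPM at 15 months and 18.6 to 94.0 CPM at 24 months. Its log2 fold change was -0.91 ± 0.21 (adjusted p 0.00036 by edgeR), and 16 of 17 livers lay below the 15-month range. None of the other 6 tested red cell genes was called, and the summed red cell markers ran from 206.0 to 383.6 CPM at 15 months and from 96.4 to 494.3 CPM at 24 months.

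Genes of the growth hormone and IGF pathway itself were mostly not called. Of 17 tested, 3 rose and 1 fell, beside 21.6% and 14.4% of all genes, and the median log2 change was -0.04. Ghr, the growth hormone receptor, went from a median of 545.8 CPM (441.6 to 620.2) to 450.4 CPM (277.3 to 575.3). Its log2 fold change was -0.35 ± 0.08 (adjusted p 0.00053 by edgeR), and 8 of 17 livers lay below the 15-month range. Socs1 and Socs3, feedback inhibitors of cytokine and growth hormone signalling, rose by 1.52 ± 0.33 and 1.27 ± 0.35 on the log2 scale. Socs3 moved to 0.79 without the 24-month liver replicate 5, and Igf1r, the receptor of IGF1, rose by 0.47 ± 0.12. None of these 4 was called without the 5 livers described next.

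Single livers of 24 months stood apart from the others of their age. The median correlation of a liver's log2 CPM with the other livers of its age was at least 0.974 for every liver of 15 months. At 24 months it was 0.932 for replicate 13 and 0.963 for replicate 8 (both prep 2), 0.956 for replicate 5 (prep 1), and 0.955 for replicate 10 and 0.966 for replicate 6 (both prep 3). These 5 had a median correlation under 0.97, a limit set after the values were seen, and counts of the main lists are also given without them. The spread between livers of one age and prep was larger at 24 months in 76.9% of genes, with a median SD of log2 CPM of 0.22 at 15 months and 0.30 at 24 months. Ribosomal protein genes went the other way, with a larger SD at 24 months in 26.7% of 86 genes. Without the 5 livers 2169 genes were called, 964 higher and 1205 lower, 13.9%, 6.16% and 7.70% of 15650 tested. Of the 5609 genes called with all livers, 1975 were still called (35.2%). For some lists 2 other fits of all livers are given. Of all 15579 genes, limma's voom with quality weights called 2944 higher and 2621 lower. A fit with a clock gene score as covariate called 2670 higher and 1954 lower. Of the growth hormone groups, 20 of 20 major urinary proteins, 15 of 20 pulse-driven genes and 14 of 26 pulse-repressed genes were called without the 5 livers. Cyp2b13 had a log2 fold change of 7.19 ± 0.70 without them, and Csad -1.68.

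**Figure D2:**
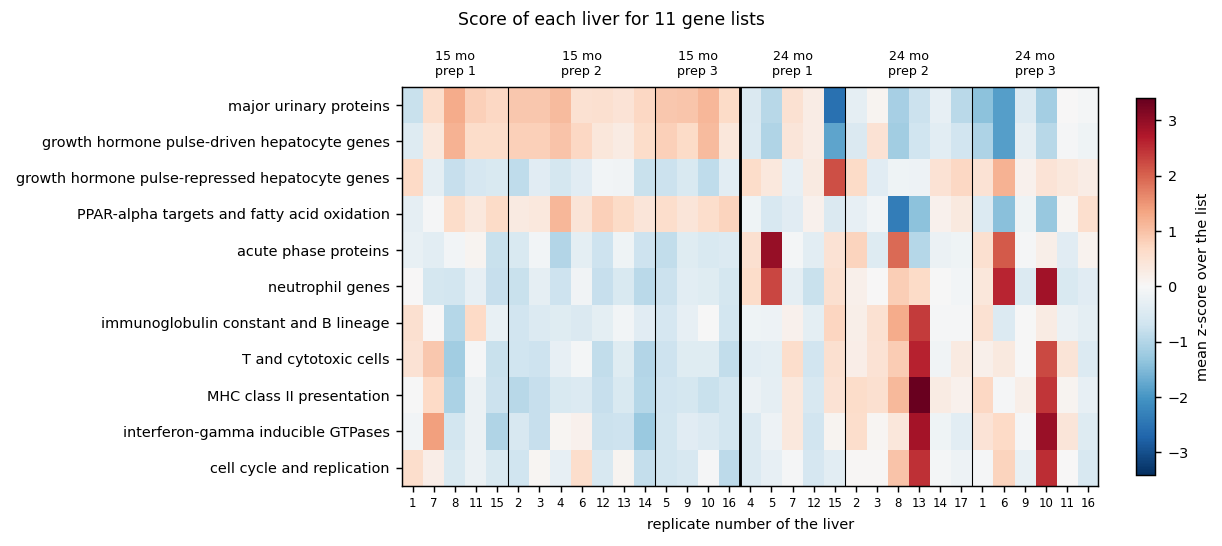
Score of each of the 33 livers for 11 gene lists, the mean over the list's genes of their z-scores of log2 CPM; columns are livers by age, prep and replicate number and rows are lists, with red for scores above and blue for scores below the mean of the 33 livers. Replicates 5, 6 and 8 had the highest acute phase scores, replicate 13 had the lowest acute phase score among livers of 24 months, and replicates 10 and 13 had the highest scores for T cells, MHC class II and interferon-gamma GTPases.

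Acute phase genes rose in most tested members. Of 27 tested members 24 rose and none fell, and their median log2 change was 1.09, with 1.18, 0.81 and 1.15 in preps 1, 2 and 3. By limma's voom 18 rose, with a median of 0.53, and without the 5 livers the median by edgeR was 0.48. The members differed in how many livers carried the rise. Saa2, a serum amyloid A (chr7:46751790-46754313), had a median of 21 CPM (9.33 to 231.0) at 15 months and of 62.7 CPM (17.8 to 15070) at 24 months. Its mean at 24 months, 2293 ± 4988 CPM (SD, n = 17), was set by replicates 5, 6 and 8, which held 13090, 9393 and 15070 CPM, 1 liver in each prep. Replicate 2 held 688.7 CPM, and the other 13 livers of 24 months lay within the 15-month range. The log2 fold change of Saa2 was 5.79 ± 1.08 (adjusted p 3.3e-05 by edgeR) with all livers and 1.14 (adjusted p 0.33 by edgeR) without the 5.

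Lcn2, which binds bacterial siderophores, rose in more livers. It ran from 3.07 to 31.2 CPM at 15 months (median 10.95) and from 11.6 to 3956 CPM at 24 months (median 46.5). Above the whole 15-month range lay 11 of 17 livers, with replicate 5 highest (5.26 ± 0.77, and 2.55 without the 5 livers, adjusted p 0.0025 by edgeR). Orm3, an orosomucoid, was above the range in 12 of 17 livers, with medians of 3.06 and 16.6 CPM (3.30 ± 0.47). Orm2, its close copy, went from 7.41 to 60.01 CPM to between 22.6 and 3055 CPM (4.77 ± 0.73). Il1rn, the interleukin 1 receptor antagonist, rose by 1.74 ± 0.31 on the log2 scale. The complement protein C3 rose from a median of 6574 CPM to 9745 CPM (0.70 ± 0.13), with 10 of 17 livers above the 15-month range and 1 below it. Of the 27 acute phase genes 11 were called without the 5 livers, all higher. Trf, which codes for the iron carrier transferrin and is in the list of secreted proteins, was above the 15-month range in 13 of 17 livers (0.49 ± 0.08). Of the 23 genes of that list 4 rose and 3 fell, with a median of -0.03.

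The promoters of the lists were searched for a motif of C/EBP factors, which drive acute phase genes in hepatocytes. The letters TTGCNNAA occurred on either strand in the 250 bases before the RefSeq start of 13 of 22 acute phase genes with a sequence (59.1%), against 9.72% of 11302 tested genes. They also occurred in 5 of 11 neutrophil genes (45.5%), 8 of 21 pulse-repressed genes (38.1%), 2 of 15 pulse-driven genes (13.3%) and 0 of 13 major urinary protein genes. A first search with a gap wider by 1 base, TTGCNNNAA, which can overlap the other, gave 6 of 22 acute phase genes (27.3%), 3 of 11 neutrophil genes (27.3%), 3 of 21 pulse-repressed genes (14.3%), 1 of 15 pulse-driven genes (6.67%) and 0 of 13 major urinary protein genes, against 8.04% of tested genes. The STAT motif TTCNNNGAA, a spacing that STAT3 and STAT5 share, occurred in 6 of 22 acute phase genes (27.3%), in 2 of 15 pulse-driven genes (13.3%), in 3 of 21 pulse-repressed genes (14.3%), and in 0 of 13 major urinary protein genes and 0 of 11 neutrophil genes, against 7.47% of tested genes. A match is only a match of letters, and enhancers farther away were not searched. The lists hold families of related genes, such as the Cyp2b, Saa, Orm and major urinary protein genes. Their promoters can be copies of each other, so members of a list are not independent and the shares are only a description. The promoters of Orm2 (chr4:63362199-63362448, plus strand) and Lcn2 (chr2:32387740-32387989, minus strand) are shown with TTGCNNAA in capitals, since both genes rose and both windows hold it.
Orm2: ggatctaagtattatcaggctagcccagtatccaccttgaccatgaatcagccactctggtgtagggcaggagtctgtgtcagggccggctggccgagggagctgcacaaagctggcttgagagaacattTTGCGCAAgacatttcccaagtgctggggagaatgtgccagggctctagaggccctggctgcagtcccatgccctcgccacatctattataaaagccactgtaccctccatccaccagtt
Lcn2: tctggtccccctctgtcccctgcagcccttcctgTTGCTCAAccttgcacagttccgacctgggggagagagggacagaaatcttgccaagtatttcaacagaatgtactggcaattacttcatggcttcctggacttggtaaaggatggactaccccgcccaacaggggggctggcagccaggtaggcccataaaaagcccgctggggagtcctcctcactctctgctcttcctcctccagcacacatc

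Metallothioneins, small proteins that bind zinc and copper, were highest in replicates 5, 8 and 6, the livers that were highest for Saa2. Mt1 (chr8:94179082-94180327) went from a median of 3.93 CPM (2.17 to 11.95) to 22.2 CPM (3.31 to 2867). Mt2, its neighbour (chr8:94172664-94173568), went from 1.57 CPM (0.683 to 7.63) to 12.2 CPM (0.872 to 2783). In 10 of 17 livers for Mt1 and 9 of 17 for Mt2 the level was above all livers of 15 months, and replicate 5 was highest for both. Their log2 fold changes were 5.35 ± 0.84 and 6.34 ± 1.07, and without the 5 livers 2.81 and 3.32, still called (adjusted p 0.0032 and 0.0091 by edgeR).

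Igdcc4, which codes for a membrane protein of the immunoglobulin superfamily (chr9:65101486-65137940), was high in 3 livers of 24 months. It lay between 0.0979 and 0.354 CPM at 15 months and between 0.0515 and 0.672 CPM in 14 livers of 24 months, but at 43.2, 32.2 and 32.3 CPM in replicates 5, 6 and 8. Those were the 3 livers with the most Saa2, at 9393 CPM or more. The log2 fold change of Igdcc4 was 5.29 ± 0.80 with all livers (adjusted p 1.0e-06 by edgeR) and 0.45 without the 5 (adjusted p 0.61 by edgeR). The chemokine Cxcl14 shared this shape, with medians of 2.50 and 3.38 CPM but a highest liver of 91.95 CPM (2.66 ± 0.39, and 0.31 without the 5 livers). Spp1, osteopontin, ran from 32.97 to 46.02 CPM at 15 months and reached 492.2 CPM in replicate 5, with medians of 39.9 and 41.4 CPM. Its log2 fold change was 1.27 ± 0.25 with all livers, 0.79 without replicate 5 and 0.06 without the 5.

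Neutrophil genes rose in all 12 tested members, or in 6 with a median of 1.01 by limma's voom with quality weights, and the median log2 change by edgeR was 3.26 (3.09, 1.66 and 4.81 in preps 1, 2 and 3). The summed neutrophil markers ran from 2.90 to 12.05 CPM at 15 months and from 4.01 to 527.4 CPM at 24 months, where the median was 14.5 CPM. S100a8, a subunit of calprotectin, ran from 0.990 to 4.75 CPM at 15 months (median 1.93) and from 1.63 to 179.3 CPM at 24 months (median 5.90). It was above the 15-month range in 10 of 17 livers, with 83.7, 111.4 and 179.3 CPM in replicates 5, 6 and 10 and at most 12.8 CPM in the others. The log2 fold changes of S100a8, S100a9 and Ngp, a granule protein, were 3.17 ± 0.54, 2.94 ± 0.51 and 4.71 ± 0.89. Mpo, myeloperoxidase, went from a median of 0.0352 CPM to 0.339 CPM, with a highest liver of 37.7 CPM (4.94 ± 0.94). Of 11 neutrophil genes 3 were called without the 5 livers, S100a9 among them (1.13, adjusted p 0.048 by edgeR). Chil3, a chitinase-like protein of myeloid cells, rose by 3.92 ± 0.70 with all livers.

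Lymphocyte genes were called over all preps together. Prep 1 alone called none of them, but it called only 3 of all 15529 genes (0.0193%). None in the T cell and B lineage lists, which leave out the variable segments, passed the test of a difference between preps. T and cytotoxic cell genes rose in 21 of 25 tested, and their median log2 fold change was -0.08 in prep 1, 1.91 in prep 2 and 1.59 in prep 3. Genes of immunoglobulin constant regions and the B lineage rose in 13 of 23, with medians of 0.02, 2.62 and 0.78. By limma's voom 5 of the 23 rose, near the share of all genes (2944 of 15579), with a median of 0.53 against 1.27 by edgeR. Ms4a1, the B cell surface protein CD20, ran from 0.944 to 6.03 CPM at 15 months (median 2.20) and from 0.9699 to 172.9 CPM at 24 months (median 5.08). The highest value belonged to replicate 13 of prep 2, and the next, replicate 1 of prep 3, was at 23.4 CPM. The log2 fold change of Ms4a1 was 2.45 ± 0.56 (adjusted p 0.00045 by edgeR) and 1.08 (adjusted p 0.059 by edgeR) without replicate 13. Without that liver 3 of the 23 B lineage genes were called, and without all 5 livers 1.

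Immunoglobulin segments showed the extreme of single livers. Of 81 tested variable, diversity and joining segments 12 rose and 1 fell, beside 21.6% of all genes called higher. Without the 5 livers 6 of 84 rose, near the 6.16% of all genes called higher then. By limma's voom 5 of 81 rose, and with a clock gene score as covariate 7 of 81. Ighv1-52 (chr12:115145487-115145919) ran from 0 to 0.545 CPM at 15 months and reached 219.5 CPM in replicate 13, where the next liver held 11.0 CPM. Its log2 fold change was 6.66 ± 1.01, and 3.76 without replicate 13. Iglv2 (chr16:19260401-19260859), a lambda light chain segment, was at 94.6 CPM in replicate 8 and at most 1.599 CPM in the other 16 livers of 24 months. Its log2 fold change was 3.35 ± 0.75 (adjusted p 0.00032 by edgeR) and 0.22 without replicate 8 (adjusted p 0.69 by edgeR). Segments share sequence, so single ones are uncertain. The B cell kinase Blk rose by 2.78 ± 0.61, and by 1.39 without replicate 13, and the Fc receptor-like gene Fcrl5 rose by 5.05 ± 0.84.

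Among T cell genes, Cd3g, a chain of the T cell receptor complex, went from a median of 0.742 CPM (0.351 to 3.19) to 1.57 CPM (0.492 to 19.5). Only 2 livers lay above the 15-month range, and the log2 fold change of 1.62 ± 0.34 became 0.99 without replicate 13. Gzmb, granzyme B, rose by 1.69 ± 0.37, with 4 of 17 livers above the range. The summed T cell markers ran from 3.86 to 14.96 CPM at 15 months and from 4.11 to 61.6 CPM at 24 months (median 8.19). For B and plasma cells the ranges were 11.9 to 59.4 CPM and 22.9 to 621.7 CPM. Of the 25 T and cytotoxic genes 2 were called higher without the 5 livers, beside 6.16% of all genes.

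Antigen presentation genes were highest in replicates 10 and 13, which also had the highest T cell scores. All 11 MHC class II genes rose (median 1.54, and 0.13, 2.23 and 1.72 in preps 1, 2 and 3). Cd74, the invariant chain that escorts class II molecules, ran from 76.5 to 363.2 CPM at 15 months (median 116.7) and from 149.2 to 1668 CPM at 24 months (median 220.0). Replicates 10 and 13 held 1668 and 1552 CPM, replicate 8 held 511.7 CPM, and the other 14 lay within the 15-month range, whose own highest liver was replicate 7. The log2 fold change of Cd74 was 1.59 ± 0.30 (adjusted p 3.7e-05 by edgeR) and 0.80 without the 5 livers (adjusted p 0.018 by edgeR). H2-DMa, which loads peptides onto class II molecules, rose by 1.54 ± 0.27. Of the 11 genes 6 were called without the 5 livers, all higher. The median summed markers of B and plasma cells went from 24.7 to 32.6 CPM over all preps, but from 33.2 to 29.4 CPM in prep 1. Those of T cells went from 6.23 to 8.19 CPM, but from 8.84 to 5.93 CPM in prep 1, and the part of these cells in the result was not tested.

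Interferon-gamma GTPases, which defend cells against intracellular microbes, rose in 13 of 18 tested, with medians of -0.11, 1.30 and 1.53 in preps 1, 2 and 3. Gbp2 ran from 5.21 to 22.5 CPM at 15 months (median 8.37) and from 8.82 to 135.8 CPM at 24 months (median 17.46). Replicates 13 and 10 held 135.8 and 99.85 CPM, and no other liver exceeded 26.7 CPM (1.54 ± 0.32). Gbp5 rose by 1.52 ± 0.34, and by 0.97 without replicate 13. None of the 18 was called by edgeR without the 5 livers, and their median was 0.26. Interferon-stimulated genes rose in 24 of 33, and in 11 with a clock gene score as covariate. Without the 5 livers 2 of the 33 rose, near the 6.16% of all genes called higher then. Zbp1, a sensor of foreign nucleic acid, rose by 1.59 ± 0.31 with all livers. MHC class I genes rose in 16 of 20 and in 8 without the 5 livers. Nlrc5, the transactivator of class I genes, rose by 0.85 ± 0.15 (adjusted p 0.0026 without the 5 livers, by edgeR), and H2-Q4, a class Ib gene, by 0.70 ± 0.12.

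Cell cycle genes rose in 16 of 40, but in 2 with a clock gene score as covariate (1 fell) and in 4 with limma's voom (2 fell). Over all 15579 genes these fits called 2670 and 2944 higher. The list's median was -0.22 in prep 1, 0.93 in prep 2 and 1.23 in prep 3. Mki67, a marker of dividing cells, ran from 0.877 to 5.83 CPM at 15 months (median 2.31) and from 1.71 to 35.9 CPM at 24 months (median 3.27). Its 4 livers above the 15-month range were replicates 13, 10, 6 and 8 (log2 fold change 1.41 ± 0.43, adjusted p 0.0071 by edgeR). Without replicate 13 it was 0.91 (adjusted p 0.084 by edgeR) and 3 of 40 genes were called. Without the 5 livers 0 of 40 rose and 1 fell by edgeR, and the list's median was 0.02.

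**Figure D3:**
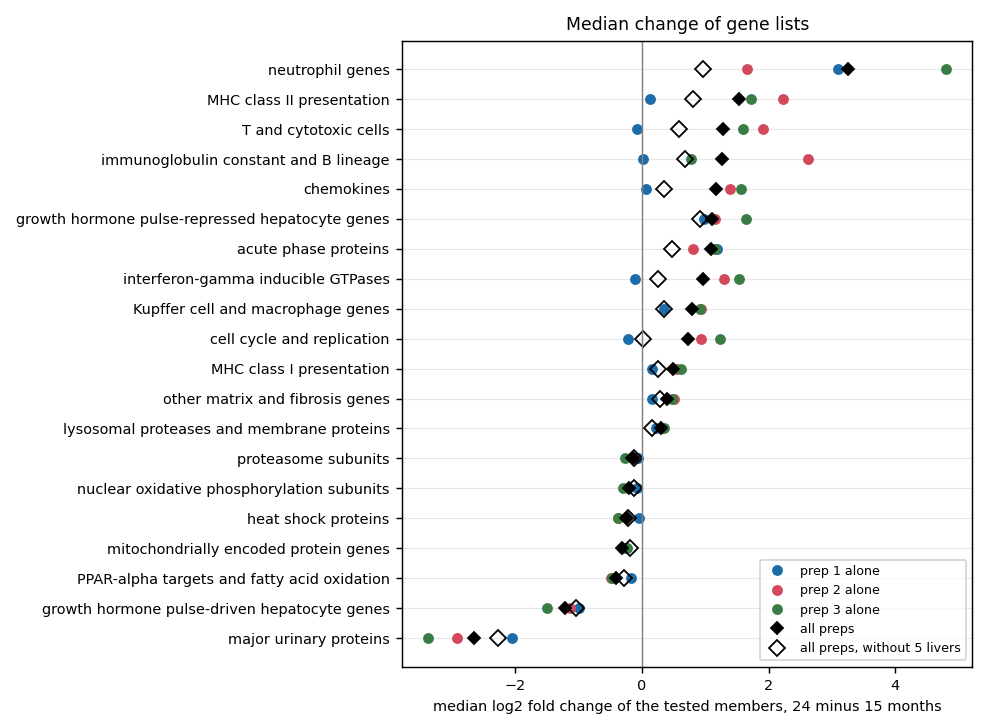
Median log2 fold change of the tested members of 20 gene lists, 24 minus 15 months, for each prep fitted alone (coloured points), all preps together (filled diamonds) and all preps without the 5 livers (open diamonds). The growth hormone lists lay on 1 side of 0 in each prep, while the T cell, interferon-gamma GTPase and cell cycle lists had medians at or just below 0 in prep 1 and above 0.9 in preps 2 and 3.

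Macrophage genes rose in 25 of 31 tested, and the median log2 change was 0.79 (0.35, 0.94 and 0.91 in preps 1, 2 and 3). Without the 5 livers 2 of the 31 rose, near the 6.16% of all genes called higher then. Gpnmb, a glycoprotein of lipid-laden macrophages, went from a median of 0.852 CPM (0.512 to 4.31) to 3.54 CPM (1.34 to 51.6). It was above the 15-month range in 7 of 17 livers (2.61 ± 0.43) and rose by 1.88 without the 5 (adjusted p 0.00049 by edgeR). Lgals3, galectin 3, rose by 1.27 ± 0.26, with 10 of 17 livers above the range. Of 21 chemokines 15 rose, and 2 without the 5 livers, beside 6.16% of all genes. Ccl6 rose by 1.63 ± 0.26 with nearly equal values in the preps (1.78, 1.5 and 1.57), whereas the log2 fold changes of Ccl8 were 0.06, 5.40 and 3.87 in preps 1, 2 and 3, a difference that did not pass the test of the interaction. Over all preps the log2 fold change of Ccl8 was 3.79 ± 0.75, and 2.18 without replicate 13. Lysosomal genes rose in 17 of 24 and 1 fell, with 5 called higher without the 5 livers. Cd63 and Grn, progranulin, rose by 0.99 ± 0.17 and 0.47 ± 0.09.

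Genes of the extracellular matrix were called higher or not at all, apart from 2 collagens that fell. Of 35 tested members outside the collagens 22 rose and none fell, and the median log2 change was 0.40, while 9 rose without the 5 livers. Dcn, decorin, a proteoglycan made by stellate cells and fibroblasts, ran from 168.2 to 228.7 CPM at 15 months (median 204.2) and from 198.4 to 353.7 CPM at 24 months (median 272.9). In 14 of 17 livers it was above every liver of 15 months, and the log2 fold changes in the 3 preps were 0.34, 0.44 and 0.44. The change of Dcn over all preps was 0.42 ± 0.05 (adjusted p 3.6e-08 by edgeR) and 0.34 without the 5 livers. Pdgfra, a growth factor receptor of the same cells, was also above the range in 14 of 17 livers (0.69 ± 0.10), and Mmp14, a matrix protease, in 12 of 17 (0.52 ± 0.09). Col6a1 rose by 0.57 ± 0.11 and Col27a1 fell by 0.69 on the log2 scale. Of 33 collagens 14 rose and 2 fell with all livers. Without the 5 livers 2 rose, near the 6.16% of all genes called higher then, and 0 fell. With a clock gene score as covariate 9 rose and 2 fell. The summed stellate cell markers, Dcn included, ran from 292.8 to 382.7 CPM at 15 months and from 348.5 to 532.7 CPM at 24 months. Their part in the result was not tested.

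Genes of bile duct cells were called higher in 5 of 13, and in 2 without the 5 livers. Sox9, a transcription factor of duct cells, was above the 15-month range in 11 of 17 livers (0.72 ± 0.16), and Muc1, a mucin, in 10 of 17 (1.00 ± 0.15). Both were called without the 5 livers. The summed cholangiocyte markers, Spp1 included, had medians of 53.4 and 60.6 CPM and a highest liver of 519.5 CPM at 24 months.

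**Figure D4:**
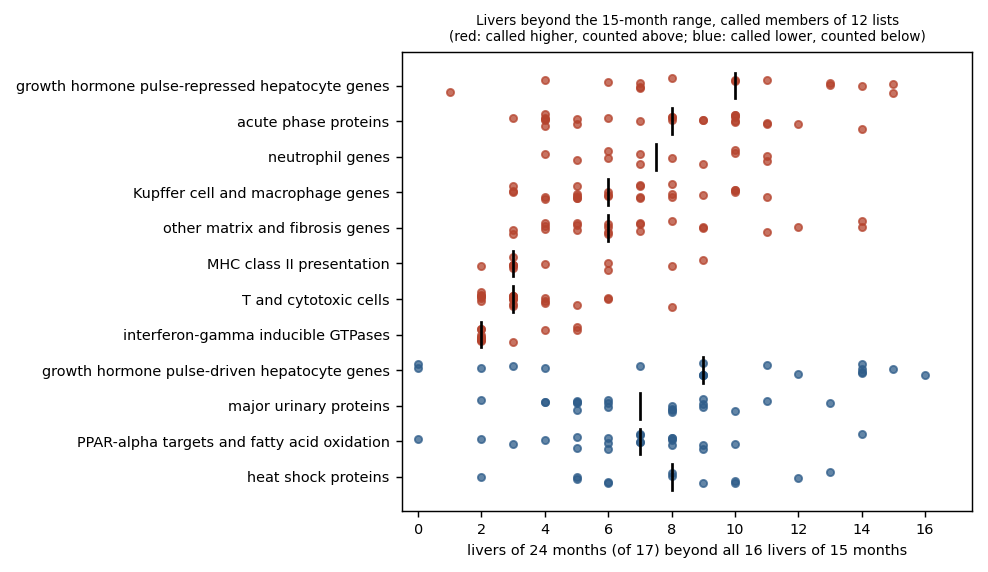
Number of 24-month livers, of 17, that lay beyond all 16 livers of 15 months, for the called members of 12 gene lists; each point is a gene, the black bar is the median of the list, red genes were called higher and counted above the 15-month range, and blue genes were called lower and counted below it. Medians were 10 for pulse-repressed genes, 9 for pulse-driven genes, 8 for acute phase genes, 7.5 for neutrophil genes, 7 for major urinary proteins, 3 for T cell and MHC class II genes and 2 for interferon-gamma GTPases. Heat shock genes had 8, PPAR-alpha targets 7, and macrophage and other matrix genes 6. Over all genes called higher the median was 6, and over all called lower it was also 6.

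PPAR-alpha is the nuclear receptor that turns on fatty acid oxidation in fasting, and 21 of 31 of its targets fell while none rose. The median log2 fold change was -0.42 (-0.17, -0.49 and -0.47 in preps 1, 2 and 3), and 13 fell without the 5 livers. Acaa1b, a peroxisomal thiolase, ran from 765.3 to 1653 CPM at 15 months (median 1146) and from 59.6 to 871.7 CPM at 24 months (median 503.3). In 14 of 17 livers it lay below the whole 15-month range, lowest in replicates 5, 8 and 6, and the preps gave -1.35, -1.33 and -1.39. Over all preps the log2 fold change of Acaa1b was -1.35 ± 0.24 (adjusted p 2.0e-05 by edgeR). Pex11a, which divides peroxisomes, fell by 0.84 on the log2 scale and Aldh3a2, a fatty aldehyde dehydrogenase, by 0.89.

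Lipid droplet genes fell in 13 of 23 and rose in 2, and without the 5 livers 10 fell and 1 rose. Fitm2, which helps droplets bud from the endoplasmic reticulum, went from 41.7 to 83.2 CPM at 15 months (median 61.2) to between 27.7 and 51.7 CPM at 24 months (median 42.1). The change was -0.67 ± 0.08 (adjusted p 1.1e-08 by edgeR), with 8 of 17 livers below the 15-month range. Mogat1, an acyltransferase of triglyceride synthesis, lay below the range in 14 of 17 livers (-1.70 ± 0.29), and Plin2, the droplet coat protein, in 9 of 17 (-0.51 ± 0.12). Fatty acid synthesis genes as a group had a median of -0.05, with 1 of 21 higher and 3 lower, or 1 and 1 both without the 5 livers and by limma's voom. Me1, malic enzyme, which supplies NADPH, fell from a median of 322.0 CPM to 143.7 CPM, below the range in 14 of 17 livers (-1.27 ± 0.23). Scd2, a desaturase, rose by 1.03 ± 0.24 although 0 livers lay above the 15-month range.

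Cholesterol genes were called higher in 5 of 24, a share near the 21.6% of all genes, in 9 by limma's voom and in 3 without the 5 livers, and in none lower, with medians of 0.57, 0.22 and -0.10 in preps 1, 2 and 3. Srebf2, the transcription factor of cholesterol synthesis, rose from a median of 75.05 CPM (63.6 to 94.3) to 102.8 CPM (72.6 to 145.3). It was above the 15-month range in 12 of 17 livers (0.42 ± 0.06, adjusted p 5.9e-07 by edgeR). Mvk and Lss, enzymes of the pathway, rose by 0.61 ± 0.15 and 0.56 ± 0.16. Bile acid genes fell in 9 of 24 and rose in 2, and without the 5 livers 6 fell and 1 rose. Cyp7b1, an oxysterol hydroxylase higher in males, went from 312.5 to 150.9 CPM in median (-0.91 ± 0.20). Cyp27a1, the sterol hydroxylase of mitochondria, Amacr, a racemase, and Abcb4, which exports phospholipid into bile, fell by 0.42, 0.31 and 0.45 on the log2 scale, with 7, 13 and 12 of 17 livers below the range.

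Subunits of oxidative phosphorylation coded in the nucleus fell in 59 of 80 and rose in none, by a median of -0.20. Ndufb3, a complex I subunit, went from 38.8 to 30.6 CPM in median (-0.31 ± 0.07). Without the 5 livers 7 of the 80 fell, near the 7.70% of all genes called lower then, and the list's median was -0.12. The preps alone called 0, 1 and 6 of them lower in preps 1, 2 and 3. Of 13 mitochondrial protein genes 5 fell, among them mt-Cytb, from a median of 10140 CPM to 8235 CPM (-0.36 ± 0.09). Without the 5 livers 1 of the 13 fell, also near 7.70%. Proteasome subunits fell in 22 of 38 and rose in 3, and without the 5 livers 10 fell and 0 rose. Psmd5 and Psmb7 fell by 0.28 and 0.25 on the log2 scale, and the interferon-inducible subunits Psmb8 and Psmb10 rose by 0.67 ± 0.16 and 0.44 ± 0.10. Heat shock genes fell in 12 of 23 and in 9 without the 5 livers. The chaperone Hspa1b, a near-identical copy of Hspa1a, went from a median of 10.1 CPM (3.86 to 25.8) to 3.49 CPM (0.750 to 9.64), with 10 of 17 livers below the range (-1.48 ± 0.32). Dnajb1, its cochaperone, fell by 0.68 on the log2 scale. Of 86 cytosolic ribosomal protein genes 2 rose and 1 fell, with a median of 0.04.

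Zonation genes were mostly not called, with 1 of 18 pericentral genes higher and 2 lower, and 1 of 20 periportal genes higher and 3 lower. Of all genes 21.6% were called higher and 14.4% lower. By limma's voom 3 periportal genes were higher and 3 lower. Without the 5 livers 0 pericentral genes were called, and 0 periportal genes were higher and 2 lower. The periportal P450 Cyp2f2 was below the 15-month range in 11 of 17 livers (-0.59 ± 0.13), Otc, a urea cycle enzyme, in 12 (-0.35 ± 0.09) and Cdh1, E-cadherin, in 13 (-0.95 ± 0.24). Ephx1, the microsomal epoxide hydrolase, in the list of Nrf2 targets, was below it in 13 (-0.61 ± 0.11).

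Each prep was then fitted alone, to see whether the change was the same in the 3 batches. Prep 1 called 3 of 15529 genes (0.0193%), all higher, with 1567 at an unadjusted p under 0.05. They were Cyp2b13, Mtmr11, a myotubularin-related gene, and Brsk2, a kinase named here after its values were seen (1.42 ± 0.24 for Mtmr11 and 3.07 ± 0.44 for Brsk2 in prep 1). Mtmr11 was nearly equal in all preps, at 1.42, 1.37 and 1.41. Prep 2 called 2630 of 15717 genes (16.7%), with 1805 higher (11.5%) and 825 lower (5.25%). Prep 3 called 1290 of 15940 (8.09%), with 727 higher (4.56%) and 563 lower (3.53%). Of genes called in preps 2 and 3, 722 were shared, 27.7% of the prep 2 genes and 56.3% of the prep 3 genes among those tested in all preps together, and all 722 moved the same way.

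The 5609 genes were chosen on the same livers, so their values by prep are a description. Genes called higher over all preps had a median log2 fold change of 0.26 in prep 1, 0.73 in prep 2 and 0.74 in prep 3, and genes called lower had -0.18, -0.28 and -0.30. The test of the difference itself, the age by prep interaction over all 83 livers, called 1 gene of 15579 (0.00642%), Iglv2, with an adjusted p of 0.045 by edgeR. That gene had 1 liver of prep 2, replicate 8, far above all others. Unadjusted, 1019 genes were under 0.05 in that test. Between pairs of preps 0 genes were called by edgeR, with 1360, 1070 and 426 at an unadjusted p under 0.05 for preps 2 and 1, 3 and 1, and 3 and 2.

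Of the genes in the lists, Iglv2 alone passed the test of a difference between preps. In prep 1, whose median change of MHC class II genes was 0.13, replicate 5 had the highest acute phase score and replicate 15 the lowest score for major urinary proteins. The livers of highest T cell score were replicate 13, in prep 2, and replicate 10, in prep 3. Without the 5 livers prep 2 called 56 genes, prep 3 called 169 and prep 1 called 3. Prep 2 called 771 genes without replicate 13 alone and 1587 without replicate 8. The counts of prep 3, with 4 livers of 15 months, fell to 121 without the 15-month replicate 5 and rose to 2222 without the 24-month replicate 16.

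**Figure D5:**
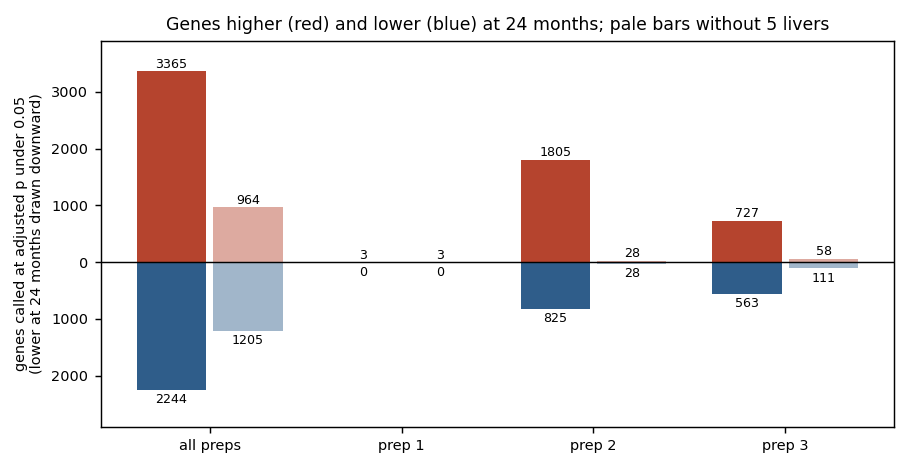
Number of genes called higher (red, upward) and lower (blue, downward) at 24 months at an adjusted p under 0.05, over all preps and in each prep fitted alone; pale bars leave out the 5 livers of 24 months that correlated least with their age. Counts fell from 5609 to 2169 over all preps, from 2630 to 56 in prep 2 and from 1290 to 169 in prep 3.

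Brains of the series were set beside the livers for the same step in age. In the brains 137 of 18711 genes were called (0.732%), 127 higher (0.679%) and 10 lower (0.0534%). The difference between the liver change and the brain change was tested in 1 fit, and 2643 of 14035 genes differed (18.8%), 1780 with a higher change in liver (12.7%) and 863 with a lower one (6.15%). That fit treats all libraries as independent, although liver and brain libraries share mouse numbers. With the mouse as a block in limma 2117 genes differed, 2013 of them among the 2643 (76.2%). Without the 5 livers 387 genes differed, 195 and 192. Gstp1 changed by -1.07 in liver and by 0.10 in brain (difference -1.16 ± 0.16), and Csad by -1.77 and 0.00 (difference -1.77 ± 0.26). Igdcc4, Smpd3, a sphingomyelinase, and Chil1, a chitinase-like protein, had liver changes above the brain change by 5.47, 2.65 and 3.03. Of the lists, 7 of 8 neutrophil genes, 5 of 11 MHC class II genes and 5 of 11 acute phase genes tested in both tissues had a higher change in liver, and 14 of 25 PPAR-alpha targets a lower one. Other lists that rose in liver differed little from the brain. MHC class I genes also rose in brain in 12 of 20, and 2 had a higher and 2 a lower change in liver. Of 31 interferon-stimulated genes 0 had a higher change in liver and 1 a lower one, and 3 rose in brain.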

How the data were processed

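PolyA-selected RNA of 83 livers and 82 brains was sequenced as stranded 100 bp read pairs, per the series' design text. The authors deposited raw read counts per gene for each tissue, with no normalization. The tools named in the submitters' processing notes, without their order, are cutadapt 2.8, HISAT2 2.1.0, SAMtools 1.9, featureCounts and Subread 2.0.1, with builds GRCm38.p6 and mm10. The annotation release, the strand setting and the treatment of reads shared by several genes are not given in the sources used here, so counts of near-identical gene copies are uncertain. Of 55471 gene identifiers 55144 matched a symbol. Gene positions are whole-gene spans of a GENCODE annotation of GRCm38, and promoters are from RefSeq.

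From the counts, genes were filtered by age group (filterByExpr) and scaled by TMM. They were tested with edgeR 4.0.16 (quasi-likelihood test, two-sided, R 4.3.3) over all 83 livers, with age and prep as terms and Benjamini-Hochberg adjustment over all genes tested. The age by prep interaction, each prep alone, and the age by tissue difference over both tissues were fitted likewise. The fits were tested on simulated data with known changes. CPM use TMM-scaled library sizes, and fitted fold changes of genes near 0 counts depend on the prior count. Each SE was taken from the change and the F statistic of its test (size over root F). Alternatives were limma 3.58.1 (voom), DESeq2 1.42.0, other filters and scaling, and leaving out livers.

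The genes named are those with the largest changes (12 in each direction), up to 4 of smallest p per list, 8 of smallest interaction p, 3 per direction and prep, and 4 per direction of the tissue difference, most with a mean of at least 1 CPM. The text gives a selection of these 199 genes; Brsk2 and the markers Alb and Pnlip were added, and 1 gene of the selection is not reported here. The comparison, the lists and the selection were chosen with earlier results of these data known. Within a tissue and age each library has its own mouse number in the labels, and liver and brain libraries share these numbers. The smallest mean squared residual between any pair of livers was 8.97, where a value near 1 would be left by sampling noise, so no library was treated as a duplicate. Depth limits genes of low count most in the liver of 15 months replicate 16, the shallowest.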

Additional observations from a re-analysis of the deposited data

Results flagged for a closer look

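Single livers were looked for in 28 groups, each a gene in livers of 1 age and prep, with Dixon's test. Chance passes it in about 1 in 20 groups when the genes are chosen beforehand. These genes were named for the largest changes in that prep, which 1 outlying liver can raise, so that rate does not hold here. At 24 months, Cyp2b13 was at 80.6 CPM in replicate 15 of prep 1, where the next liver was at 2.42 CPM. Ighv1-52, an immunoglobulin heavy chain segment, was at 220 CPM in replicate 13 of prep 2, with the next at 1.93 CPM. Saa2 was at 9390 CPM in replicate 6 of prep 3, with the next at 115 CPM. At 15 months, Saa2 was at 47.7 CPM in replicate 10 of prep 3, with the next at 21.1 CPM.

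Iglv2 was the gene whose change differed between preps, with an interaction adjusted p of 0.0453 by edgeR, and replicate 8 of prep 2 held 94.6 CPM of it.

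The change differed between liver and brain for 8 named genes, given as liver minus brain on the log2 scale. It was 5.47 for Igdcc4, 3.03 for Chil1, 2.65 for Smpd3 and 2.63 for Cxcl14. It was -2.61 for Cspg5, -1.77 for Csad, -1.16 for Gstp1 and -0.886 for Pex11a, which divides peroxisomes.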

How the results depend on the processing

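Over all preps 5609 genes were called, and 2169 without the 5 livers, an alternative chosen after seeing the data. Each prep alone called 3, 2630 and 1290. Leaving out each liver in turn gave 4827 (without the 24-month replicate 13) to 6023 (without the 15-month replicate 1), and the planned changes of scaling, filter, samples, tool and covariates gave 4624 to 5771. The age by prep interaction called 1 gene, and 0 without a filter on low counts, with a stricter filter, with only livers of 15 and 24 months, with voom, with a clock gene score as covariate and without the 5 livers. Unadjusted, these left 356 to 1723 genes under 0.05, and leaving out single livers gave 0 to 1 called. Prep 1 called 0 genes with only the livers of both ages, 27 in 1 fit over all livers, 92 with DESeq2, and 1 to 36 when a liver was left out, with 36 without the 24-month replicate 7. Prep 2 called 56 without the 5 livers and 771 (without replicate 13) to 2960 when 1 was left out. Prep 3 called 130 with only the livers of both ages, 578 without a filter, 2227 with DESeq2, 169 without the 5 livers, and 121 to 2222 when 1 was left out. The tissue difference called 387 genes without the 5 livers and the 24-month brains of the same mouse numbers. The cause of these shifts was not tested. Of 96 genes compared, 69 were called in the same direction without the 5 livers and 27 were no longer called, and 4 changed sign in a prep alone, namely Iglv2 at -0.39 in prep 3 and Cd3g, Mki67 and Fcrl5 at -0.056, -0.021 and -0.20 in prep 1. Replicate numbers do not pair the livers, since correlations of same-numbered livers ran from -0.17 to 0.157 with a median of -0.01, and the fit with a replicate block called 5578 genes.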

Other observations

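Other gene groups are given here beside the 21.6% of all genes called higher and the 14.4% called lower. Senescence and damage response genes were higher in 7 of 22 and lower in none, and 1 was called higher without the 5 livers. Genes of endoplasmic reticulum stress gave 1 higher and 1 lower of 25, and 0 higher and 3 lower without the 5 livers. Glucocorticoid-responsive genes were higher in 6 of 16, and in 3 without the 5 livers. Immediate early genes, which respond within minutes to a stimulus, were higher in 6 of 17, and in 1 without the 5 livers. Circadian clock genes were higher in 2 and lower in 3 of 21, and without the 5 livers in 1 and 1. Genes of amino acid and one-carbon metabolism were higher in 3 and lower in 8 of 38, without the 5 livers in 2 and 1, and by limma's voom in 7 and 6. Sinusoidal endothelium genes were higher in 4 and lower in 1 of 21, but higher in 0 and lower in 2 without the 5 livers. Complement genes were higher in 12 and lower in 3 of 24, but higher in 2 and lower in 4 of 25 without them.

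The 15-month liver replicate 1 had a score of -0.77 for major urinary proteins and of -0.45 for pulse-driven genes, below 0 unlike the other 15 livers of its age. The 24-month replicates 7 and 12 of prep 1, 3 of prep 2 and 11 of prep 3 had scores above 0 for major urinary proteins, with replicate 11 at 0.0045.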
